A study of Mus musculus with 34 samples.

Results

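Primordial germ cells of XX (female) mouse embryos were followed from embryonic day E11.5 to E13.5, the interval in which ovary-fated germ cells stop dividing and step into meiotic prophase. The E13.5 group held 3 arrays of germ cells from female embryos, and the E11.5 group held 4 arrays of germ cells from embryos of mixed sex. These 7 arrays were chosen by their labels out of 34 deposited columns. E11.5 replicate 5 equals the mean of the other 4 and was left out, as was 1 column of another group, which leaves 32 arrays in 10 groups. Only genes outside chromosomes X and Y are described, 7969 of 8251 genes tested, because the E11.5 cells are of mixed sex.

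All cells came from the C57Bl/6 strain and carried an Oct4/GFP reporter, a fluorescent protein read out from the control sequences of the pluripotency gene Pou5f1, and reporter-positive cells were taken by flow sorting. The sort therefore selects on Pou5f1 activity at both stages. Their RNA went through in vitro transcription 2 times before hybridisation to Affymetrix expression arrays, and the values below are log2 signals. How many embryos each array pools is not given in the sources used here, and the labels call the replicates biological. Germ cells of male (XY) embryos at E13.5 (3 arrays, same strain and sort) served to ask whether the sexes differed at that stage. Reporter-negative cells sorted from gonads with mesonephros at E11.5 (4 arrays, mixed sex), all somatic, served as a reference for soma. In bulk samples such as these, fewer cells that express a gene and less RNA per cell cannot be told apart.

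In the fetal ovary, germ cells receive BMP ligands and retinoic acid from the surrounding tissue and then switch on Stra8, the gatekeeper of meiotic entry. Meiotic cells copy their DNA a last time, exchange cohesin subunits for meiotic ones, build a protein axis along each chromosome, break and recombine their DNA and pair homologues through the synaptonemal complex. Their pluripotency programme is shut down over the same days. Germ cells in a fetal testis do not enter meiosis at this stage but pass through a phase of Nodal signalling and arrest in the cell cycle.

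The germ cell identity of the sorted cells was checked on 10 marker genes, all measured. Their mean log2 signal was 9.56 to 10.03 on the E11.5 arrays and 9.09 to 9.36 on the XX arrays, against 5.98 to 6.14 in soma. Of the 10 markers, 7 were called lower and 1 higher in XX cells than at E11.5. The set includes Pou5f1, the gene whose reporter was sorted on. Meiotic markers (6 measured of 7) averaged 5.44 to 5.77 at E11.5, 6.63 to 7.38 in XX cells and 5.79 to 6.07 in XY cells. The probe set for the synaptonemal gene Sycp3 stood between 3.35 and 3.57 on all 7 arrays and at 3.46 on average in soma, so it did not separate germ cells from soma at either stage.

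In each group an array leaned towards the other stage. Among the 4 E11.5 arrays, replicate 4 lay furthest in the direction of the change in 1883 of the 2509 genes called below. Each of the other 3 did so in 6.14% to 10.1%. Replicate 4 stood at a median of 0.20 log2 units from the E11.5 mean along the change, against 0.47 to 0.65 for the XX arrays. Among the 3 XX arrays, replicate 3 lay least far along the change in 66.5% of the called genes, against 15.3% and 18.1% for the other XX arrays. Leaving out E11.5 replicate 4 raised the number of genes called to 2879, and leaving out XX replicate 3 gave 2550. RNA quality controls moved with the stage: the 18S RNA probe set read 12.36 to 13.48 at E11.5 and 14.3 to 14.9 in XX cells, and the transferrin receptor control, set as its 3′ minus its 5′ probe set, read 0.90 to 1.24 and 0.61 to 0.73. The ranges of the actin, Gapdh and pyruvate carboxylase controls overlapped between the stages. The part of these controls in the results was not tested.

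Markers of other cells of the gonad were checked in the same way. Of 9 measured markers of gonad and mesonephros soma, 3 were called higher and none lower in XX cells, with array means of 6.64 to 6.89 at E11.5, 6.86 to 7.04 in XX and 8.18 to 8.29 in soma. The red cell gene Hba-a1 rose by 1.30 (a call lost with only the 3 germ cell groups fitted), the basement membrane collagen gene Col4a1 by 1.35 and the endothelial gene Emcn by 0.72. XY cells moved at least as far in these (1.84, 2.17 and 0.80). Of the longer lists of such genes, 7 of 32 measured soma genes, 5 of 13 endothelial genes and 3 of 31 mesenchymal genes rose, and 0, 0 and 1 fell. The shares that rose were 21.9%, 38.5% and 9.68%, beside 16.2% of all autosomal genes. None of 19 macrophage and leukocyte genes was called by limma. The part of such cells in the results was not tested, and levels in soma stand beside genes to which it could apply.

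From E11.5 to E13.5, XX germ cells changed in 2509 of 7969 autosomal genes (31.5%), called at an adjusted p under 0.05 by limma with Benjamini-Hochberg adjustment over all genes tested. Of these, 1293 rose (16.2%) and 1216 fell (15.3%). These shares are the background for the counts of list members below. The large changes were mostly falls: 368 genes fell at least 2-fold (4.62%) and 94 rose at least 2-fold (1.18%). The median difference over all autosomal genes was 0.08 on the log2 scale. With each array centred on its median, 41.6% of called genes were higher in place of 51.5%. In 1964 genes (24.6%) the call came with no overlap between the 3 XX and the 4 E11.5 arrays.

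The direct comparison of XX with XY cells at E13.5 equals the difference of their changes since E11.5, since both are taken from the same E11.5 arrays. Those arrays are of mixed sex, so a sex difference already present at E11.5 cannot be told apart from a differing change. The comparison called 460 genes higher (5.77%) and 190 lower (2.38%) in XX cells, 650 in all (8.16%). Of the 94 genes that rose at least 2-fold in XX cells, 54 were also higher in XX than in XY cells and 40 showed no called difference. From the same E11.5 arrays, XY cells rose in 2550 genes (32%) and fell in 1633 (20.5%). Of the 368 that fell at least 2-fold in XX cells, 333 showed no called difference from XY cells, 23 were lower in XX and 12 higher. The 94 and the 368 were picked on the same XX arrays that enter the comparison with XY cells. These counts are therefore not independent of that choice. The number of genes called between the sexes depended on single arrays, at 344 without XX replicate 3 and 368 without XY replicate 3.

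**Figure D1:**
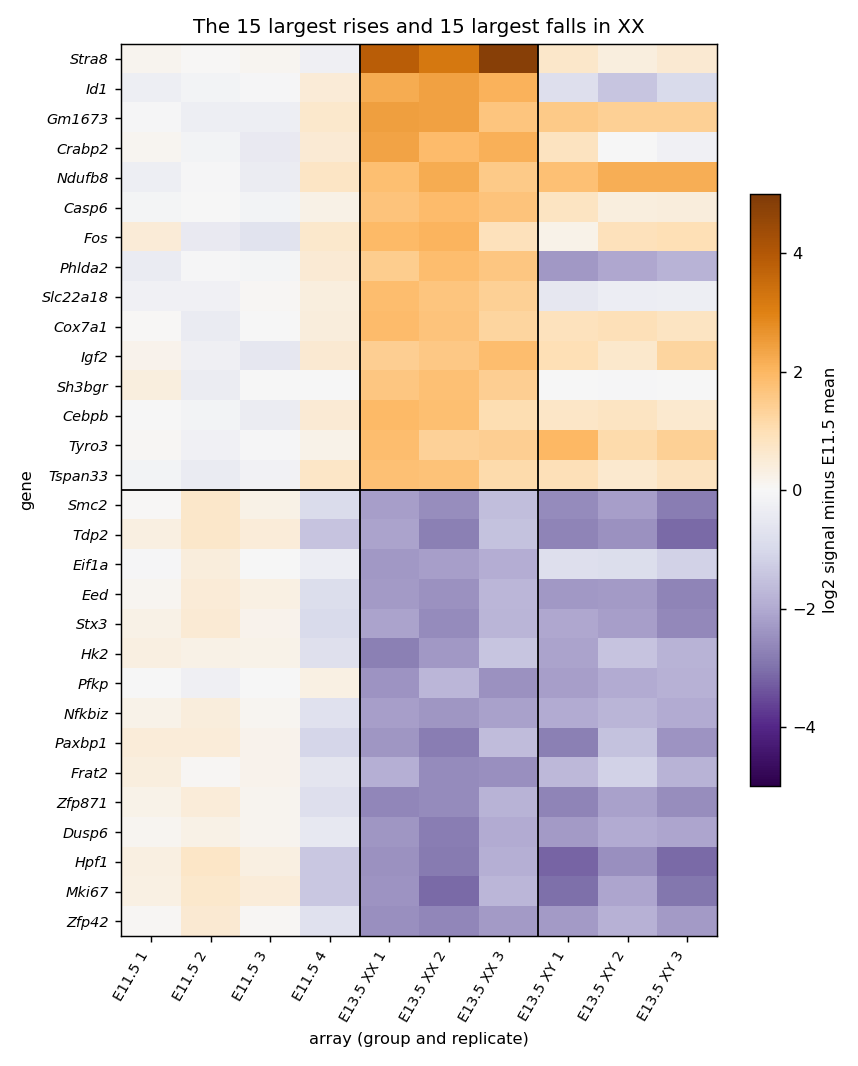
Log2 signal of each array minus the E11.5 mean (colour scale) for the 15 largest rises (upper rows) and 15 largest falls (lower rows) among called genes whose XX and E11.5 arrays do not overlap; columns are the 4 E11.5, 3 XX and 3 XY arrays. Stra8, Id1, Phlda2, Slc22a18 and Sh3bgr are high in the XX columns and not in the XY columns, whereas most falls appear in both sexes, and E11.5 replicate 4 is the lowest E11.5 column in all falls but Pfkp.

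Stra8, which starts the meiotic programme, showed the largest change of any gene tested. Its log2 signal was 4.70, 4.58, 4.67 and 4.33 on the E11.5 arrays and 8.41, 7.80 and 9.40 on the XX arrays. The E11.5 values lay at the level of soma (4.70 on average) and the XX values all lay far above them, with XX replicate 3 the highest. The rise was 15.6-fold (log2 difference 3.97 ± 0.21 SE, adjusted p = 3.02e-13). XY cells read 5.24, 4.94 and 5.14, and XX cells exceeded them by 3.43 ± 0.22 (adjusted p = 1.71e-11).

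Stag3 encodes a cohesin subunit used only in meiosis. It read 8.02, 7.70, 8.10 and 8.26 at E11.5 and 9.50, 9.26 and 9.44 in XX cells, a 2.6-fold rise without overlap (1.38 ± 0.10, adjusted p = 1.96e-10). XY cells lay between, at 8.90, 8.63 and 8.56, and differed from XX cells by 0.70 ± 0.11 (adjusted p = 7.48e-05). Syce2, a part of the central element of the synaptonemal complex, read 8.30, 8.76, 8.71 and 8.78 at E11.5 and 9.48, 9.60 and 9.37 in XX cells (0.84 ± 0.16, adjusted p = 1.39e-04). Its XY values of 8.97, 8.72 and 8.64 were all below the XX values (difference 0.71 ± 0.17, adjusted p = 0.00616). Both genes stood lower in soma, at means of 6.15 and 6.40.

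These 3 genes rose together and differed between the sexes. Their promoter windows that held a match to the motifs below are shown. The sequences are RefSeq windows of GRCm38.p6 from 250 bases before to 50 bases after the annotated start of the gene, 300 bases on the plus strand. Capitals mark matches on either strand to any of 4 motifs: the E-box CACGTG, bound by basic helix-loop-helix factors, the E2F-type site GCGGGAA, the motif CNCCTCAG associated with STRA8 and the nuclear receptor half-site AGGTCA.
Stra8 promoter, chr6:34920698-34920997: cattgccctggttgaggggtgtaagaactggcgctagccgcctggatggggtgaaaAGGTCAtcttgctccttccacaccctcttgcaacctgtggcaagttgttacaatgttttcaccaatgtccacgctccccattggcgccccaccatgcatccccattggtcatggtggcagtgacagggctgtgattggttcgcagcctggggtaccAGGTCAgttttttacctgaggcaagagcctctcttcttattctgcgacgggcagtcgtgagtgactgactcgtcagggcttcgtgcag
Stag3 promoter, chr5:138280259-138280558: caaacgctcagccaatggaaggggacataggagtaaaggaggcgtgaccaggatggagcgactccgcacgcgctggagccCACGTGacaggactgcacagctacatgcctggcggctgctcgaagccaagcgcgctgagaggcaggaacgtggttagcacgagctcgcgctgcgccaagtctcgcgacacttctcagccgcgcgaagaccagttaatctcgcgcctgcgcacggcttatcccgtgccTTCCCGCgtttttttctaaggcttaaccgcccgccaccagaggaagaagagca
Syce2 promoter, chr8:84872008-84872307: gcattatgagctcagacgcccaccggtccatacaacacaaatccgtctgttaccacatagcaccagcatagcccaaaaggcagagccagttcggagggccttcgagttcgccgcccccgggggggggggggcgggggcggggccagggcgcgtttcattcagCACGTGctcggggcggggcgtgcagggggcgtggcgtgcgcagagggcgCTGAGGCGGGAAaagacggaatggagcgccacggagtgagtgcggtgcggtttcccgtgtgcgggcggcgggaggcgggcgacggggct

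The Stra8 window held 2 half-sites, 194 and 38 bases before the start, and none of the other motifs. The Stag3 window held an E-box 170 bases before the start and an E2F-type site 3 bases before it. The Syce2 window shown held an E-box 88 bases, a CNCCTCAG motif 39 bases and an E2F-type site 34 bases before the start, the last pair overlapping by 3 bases. A second, overlapping RefSeq window of Syce2, chr8:84871861-84872160, held none of the 4 motifs. Over all 32851 promoter windows of this length, 7.15% held the E-box, 4.60% the E2F-type site, 7.94% the CNCCTCAG motif and 16.3% the half-site. Over the 8121 windows of measured genes the shares were 9.53%, 7.01%, 8.93% and 13.7%. In all, 21 genes were looked up and 18 had a window. The windows of Id2, Id3, Id4, Msx1, Msx2, Gata2, Crabp1, Phlda2, Slc22a18, Sun2 and Lhx8 held none of the 4 motifs. Those of Dazl, Sycp1 and Figla held the CNCCTCAG motif, and that of Sycp1 also an E-box. A match is a description of these letters and shows no binding.

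Dmc1, the recombinase of meiotic strand exchange, rose less. It read 5.98, 6.13, 6.22 and 5.70 at E11.5 and 6.37, 6.29 and 7.11 in XX cells (0.58 ± 0.15, adjusted p = 0.00276). XX replicate 3 alone stood well above the E11.5 arrays, and without it the difference was 0.32 and the call was lost. The same array decided Sycp1, which builds the transverse filaments of the synaptonemal complex: 3.91, 3.34 and 5.59 in XX against 3.56, 3.01, 3.36 and 2.23 at E11.5 (1.24 ± 0.33), and 0.59 with no call without it. The Sycp1 call was also lost with only the 3 germ cell groups fitted. The window of Dmc1 held none of the motifs.

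The list of meiotic entry regulators had 12 measured members, of which 7 rose and 1 fell (median 0.36, against 0.08 over all genes). Besides Stra8 these were Msx1, Msx2 and Gata2, described with the BMP genes, and the RNA-binding protein gene Dazl, which licenses germ cells for meiosis. Dazl read 6.90, 6.69, 7.04 and 6.49 at E11.5 and 7.10, 7.50 and 8.17 in XX cells (0.81 ± 0.16, adjusted p = 3.18e-04), with XX replicate 3 again highest, and the difference was 0.52 without that array. The oocyte transcription factor genes Lhx8 (0.46) and Figla (0.27) rose little. The Figla call was lost without any of 3 arrays (E11.5 replicate 1 or 2, XX replicate 1; 0.18 to 0.26). Max, the partner of MYC and of the repressor complex that holds meiotic genes silent, fell 2.06-fold (-1.04 ± 0.17, adjusted p = 3.31e-05). Of the list, 4 members were called higher in XX than in XY cells: Stra8, Msx1, Msx2 and Gata2. The XX minus XY differences of Dazl (0.48), Lhx8 (0.09), Figla (0.08) and Max (-0.12) were not called.

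**Figure D2:**
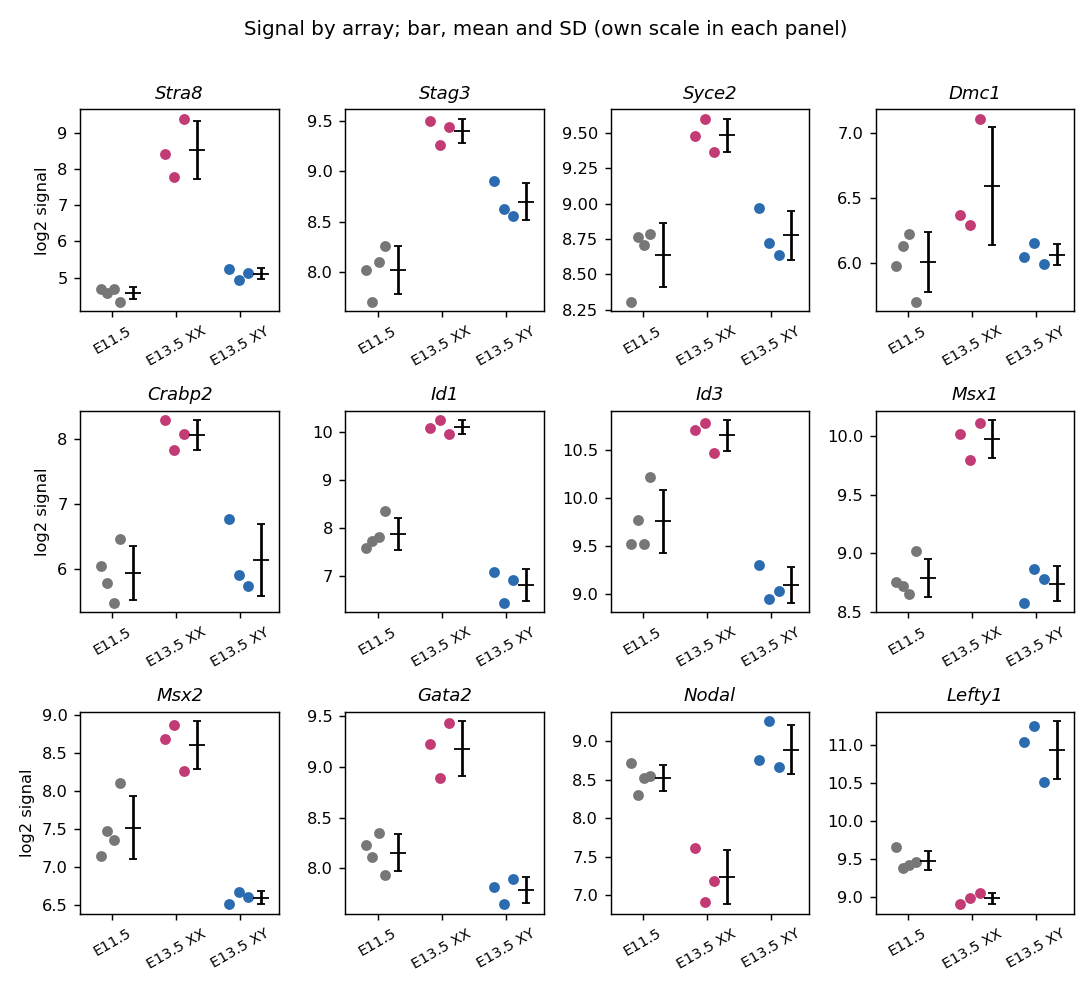
Log2 signal of 12 genes on each E11.5 (grey), XX (pink) and XY (blue) array; points are arrays, and the black bar beside each group is its mean with the SD (n = 4, 3 and 3), with an own scale in each panel. Stra8, Crabp2, Id1, Msx1 and Gata2 are higher on every XX array than on any E11.5 or XY array, Msx2 is lowest in XY cells, and Nodal and Lefty1 are lowest in XX cells.

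Cohesin holds sister chromatids together, and meiotic cells replace several of its subunits. Of 9 measured cohesin genes, 1 rose and 4 fell in XX cells (median -0.29). The riser was Stag3. The fallers were the core subunit genes Smc3 (10.85, 11.11, 10.93 and 9.53 at E11.5; 8.91, 8.55 and 9.63 in XX; -1.58 ± 0.29) and Rad21 (-1.19 ± 0.27), the mitotic counterpart Stag1 (-0.94 ± 0.18) and the regulator Pds5b (-0.94 ± 0.22). For Smc3, Stag1 and Pds5b the stages overlapped, with E11.5 replicate 4 the lowest of its group and XX replicate 3 the highest. The falls in XY cells were -2.46 for Smc3, -1.70 for Rad21 and -1.56 for Stag1, and among these the difference between the sexes was called for Stag1 (0.62, adjusted p = 0.0446). That call was lost without any of 4 of the 6 arrays (0.47 to 0.68).

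Among 6 measured genes of the chromosome axis and synapsis, 3 rose and 2 fell (median 0.33), Syce2 among the risers. Sun2, which links telomeres to the nuclear envelope, rose by 0.65 ± 0.10, while its relative Sun1, which serves the same link in meiosis, fell by 0.81. Trip13, which remodels axis proteins, fell by 0.78. The third riser was Sycp1. Sycp3 passed no test (0.02 ± 0.09, adjusted p = 0.897; the sign turned under several alternatives).

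Among 5 measured genes of meiotic recombination, Dmc1 rose and the helicase gene Helb fell (-0.71 ± 0.14). In the wider list of homologous recombination and mismatch repair, 4 of 25 measured members rose (16%) and 8 fell (32%), with a median of -0.07. Brca1, a ubiquitin ligase that promotes recombination, fell 2.3-fold (-1.20 ± 0.20), and Trp53bp1, which favours end joining over recombination, fell 2.09-fold (-1.07 ± 0.14). Trp53bp1 read 7.73, 7.66 and 7.61 in XX cells, below 8.29, 8.40 and 8.19 in XY cells (-0.63 ± 0.15, adjusted p = 0.00839). The mismatch repair gene Msh3 fell by 0.78 and the exonuclease gene Exo1 by 0.61. Brca2, which loads recombinases onto DNA, rose by 0.49 ± 0.14 and Rpa2, of the single-strand binding complex, by 0.70 ± 0.17.

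BMP ligands act through receptors and SMAD proteins on target genes such as the Id family, whose products block basic helix-loop-helix factors. Of 19 measured genes of the BMP response, 7 rose and 2 fell in XX cells (median 0.18), and 8 were higher and none lower in XX than in XY cells. Both counts of risers and fallers held with each of the 7 arrays left out in turn. Id1 read 7.58, 7.73, 7.82 and 8.36 at E11.5 and 10.08, 10.26 and 9.97 in XX cells, a 4.69-fold rise (2.23 ± 0.23, adjusted p = 7.49e-08). XY cells moved the other way, to 7.07, 6.43 and 6.92, and lay 3.30 ± 0.25 below XX cells (adjusted p = 3.38e-10).

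Id3 read 9.52, 9.77, 9.52 and 10.22 at E11.5, 10.70, 10.77 and 10.46 in XX cells and 9.30, 8.94 and 9.03 in XY cells. It rose by 0.89 ± 0.17 and differed from XY cells by 1.56 ± 0.18 (adjusted p = 1.44e-06). Id2 read 8.82, 9.01 and 9.25 in XX cells against 8.18 to 8.36 at E11.5. These arrays did not overlap, but the difference did not pass the test over all groups (0.77 ± 0.41, adjusted p = 0.153). The same 0.77 was called with only the 2 compared groups or the 3 germ cell groups fitted, and 0.69 was called with array weights. XY cells read 7.08, 6.45 and 6.88 in Id2 (difference 2.23 ± 0.44, adjusted p = 0.00117). Id4 rose by 0.49. The sexes differed in Id4 by 0.49 (adjusted p = 0.0229), a call lost without any of 4 of the 6 arrays (0.43 to 0.48). Soma held more Id1, Id2 and Id3 signal than E11.5 germ cells, with means of 10.26, 10.97 and 11.07.

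Msx1 and Msx2, homeobox genes that act downstream of BMP in meiotic entry, rose as well. Msx1 read 8.76, 8.72, 8.66 and 9.02 at E11.5 and 10.02, 9.80 and 10.11 in XX cells (1.18 ± 0.16, adjusted p = 3.52e-06), with XY cells at 8.58, 8.87 and 8.78 (difference 1.23 ± 0.17). Msx2 read 7.14, 7.47, 7.35 and 8.11 at E11.5 and 8.68, 8.87 and 8.25 in XX cells (1.09 ± 0.18, adjusted p = 4.27e-05). XY cells stood at 6.505, 6.67 and 6.61, 2.01 ± 0.19 below XX cells (adjusted p = 4.81e-08). The groups did not overlap in either gene, and Msx2 was lower in soma (6.14) than on any E11.5 array.

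Gata2, a zinc finger factor of the ovary-fated germ cell, read 8.23, 8.11, 8.35 and 7.93 at E11.5 and 9.22, 8.89 and 9.43 in XX cells (1.02 ± 0.13, adjusted p = 1.19e-06). XY cells read 7.82, 7.64 and 7.90 (difference 1.40 ± 0.14, adjusted p = 6.88e-08). Acvr2a, a type II receptor, rose by 0.73 ± 0.16 and exceeded XY cells by 0.71 ± 0.17. The call between the sexes was lost without XX replicate 3 or XY replicate 3 (0.52 and 0.56). It was also lost with the mean over the probe sets of the gene (0.36), of which the dimmer changed by -0.08 since E11.5. The homeobox gene Gbx2, which is outside the list, read 8.32, 8.43 and 8.18 in XX cells, 7.39 to 7.90 at E11.5 and 6.80, 7.10 and 7.09 in XY cells (0.60 ± 0.13 since E11.5, 1.32 ± 0.14 over XY).

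The 2 fallers of the list were Hey1, a Notch and BMP target (9.96, 10.004, 10.08 and 9.54 at E11.5; 8.199, 8.201 and 8.12 in XX), which fell 3.30-fold (-1.72 ± 0.12, adjusted p = 6.98e-11), and Smad1, which carries the BMP signal to the nucleus. Smad1 fell 2.90-fold (-1.53 ± 0.23), with XX replicate 3 at 10.66 and the other XX arrays at 9.66 and 9.77. The BMP receptor genes Bmpr1a (-0.04), Bmpr1b (0.01) and Bmpr2 (0.20) and the mediators Smad4 (-0.06) and Smad5 (0.10) passed no test.

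Retinoic acid reaches its nuclear receptors bound to carrier proteins. Of 20 measured genes of this pathway, 5 rose (25%, beside 16.2% of all autosomal genes) and none fell in XX cells (median 0.13). Crabp2, the carrier that delivers retinoic acid to receptors, read 6.04, 5.79, 5.47 and 6.45 at E11.5 and 8.28, 7.82 and 8.06 in XX cells, a 4.35-fold rise (2.12 ± 0.21, adjusted p = 3.29e-08). XY cells read 6.77, 5.91 and 5.73, and the difference was 1.92 ± 0.22 (adjusted p = 1.36e-06). Its relative Crabp1 rose by 0.75 ± 0.13 and exceeded XY cells by 0.74 ± 0.14 (adjusted p = 7.98e-04). Soma carried more of both, at 10.39 and 9.38.

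Among the receptors, Rxra rose by 0.66 ± 0.09 and Rxrb by 0.45 ± 0.12, the latter with a call lost without XX replicate 1 (0.29). XY cells also rose in both (0.48 and 0.60), with no called difference between the sexes. Stra8 was the other riser of the list. Rara (0.20) and Rarg (0.05), the synthetic enzyme genes Aldh1a1 (0.11), Aldh1a2 (-0.12) and Aldh1a3 (0.11), and Cyp26a1 (0.21), which degrades retinoic acid, passed no test.

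Nodal, a TGF-beta family ligand that supports pluripotency and marks the early testis-fated germ cell, fell in XX cells, as did its target and inhibitor Lefty1. Nodal read 8.72, 8.30, 8.53 and 8.55 at E11.5 and 7.61, 6.91 and 7.19 in XX cells (-1.29 ± 0.17, adjusted p = 1.89e-06). XY cells read 8.75, 9.26 and 8.66, 1.66 above XX cells on average (XX minus XY -1.66 ± 0.18, adjusted p = 3.47e-07). Lefty1 read 9.66, 9.38, 9.42 and 9.47 at E11.5, 8.91, 8.99 and 9.06 in XX cells and 11.05, 11.26 and 10.52 in XY cells. It fell by 0.50 in XX cells and rose by 1.46 in XY cells, an XX minus XY difference of -1.95 ± 0.14 (adjusted p = 6.00e-11).

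In the list of male germ cell fate, 5 of 14 measured members fell and 1 rose (median -0.14). The other fallers were Smad2, which carries Nodal signals (-0.90 ± 0.21, overlapping through E11.5 replicate 4), the growth factor receptor gene Fgfr3 and Eif2s2. Fgfr3 fell by 0.57 in its brightest probe set, but the mean over its probe sets was 0.02 higher. Eif2s2 fell by 0.42, a call lost without any of 5 arrays (-0.44 to -0.32). The riser was the cell cycle inhibitor gene Cdkn2b (0.70 ± 0.19), which also rose in XY cells (0.82).

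Among pluripotency genes, falls outnumbered rises: 12 of 31 measured members fell and 2 rose (median -0.34, and -0.35 in XY cells). Zfp42 (Rex1), a marker of naive pluripotency, showed the largest fall of any gene, from 9.995, 10.51, 9.99 and 9.23 at E11.5 to 7.44, 7.29 and 7.63 (5.57-fold, -2.48 ± 0.21, adjusted p = 2.34e-09). Nanog, a core factor, went from 11.45, 11.74, 11.63 and 11.43 to 10.32, 10.33 and 10.33 (2.35-fold, -1.23 ± 0.20, adjusted p = 2.46e-05). XY cells fell by 2.13 and 1.28 in these genes, with no called difference from XX cells. Neither gene reached the level of soma (5.19 and 6.62).

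Pou5f1 and Sox2 fell less. Pou5f1 read 10.19, 10.04, 9.93 and 9.84 at E11.5 and 9.76, 9.35 and 9.03 in XX cells (-0.62 ± 0.19, adjusted p = 0.0144), a call lost without XX replicate 3 (-0.44). It is also the gene whose reporter was sorted on. Sox2 read 11.62, 12.08, 11.88 and 11.65 against 11.31, 11.08 and 11.22 (-0.61 ± 0.14). The calls of Pou5f1, Sox2 and Utf1 (-0.50 ± 0.14) were lost after quantile normalization.

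The remaining fallers were Sall4, Tfap2c, Tfcp2l1, Dppa4, Jarid2, Dppa3 and Nr5a2, with log2 differences between -0.90 and -0.61. Sall4 and Tfap2c, factors of both pluripotent and germ cells, fell further in XY cells (-1.54 and -1.69), so that XX cells exceeded XY cells by 0.64 ± 0.15 and 0.82 ± 0.17 (adjusted p = 0.00553 and 0.00165). Dppa3, which protects DNA methylation marks, went the other way: XX cells read 10.96, 10.52 and 10.77, below XY cells at 11.46, 11.64 and 11.12 (-0.65 ± 0.18, adjusted p = 0.0221). That call was lost without any of 4 of the 6 arrays (-0.66 to -0.53). Dppa2, a chromatin factor, passed no test in XX cells (-0.02 ± 0.14, adjusted p = 0.932; the sign turned under some alternatives) and stood 0.95 ± 0.15 above XY cells (adjusted p = 1.27e-04).

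The 2 risers were Klf4 (7.85, 7.62, 7.33 and 7.73 at E11.5; 8.50, 8.98 and 8.39 in XX; 0.99 ± 0.26, adjusted p = 0.00462) and Fgf4 (0.38 ± 0.14). Klf4, a factor used in reprogramming, is also an immediate early gene of many somatic cells and stood at 10.69 in soma. The call of Fgf4 was lost without any of 5 arrays (0.29 to 0.41).

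**Figure D3:**
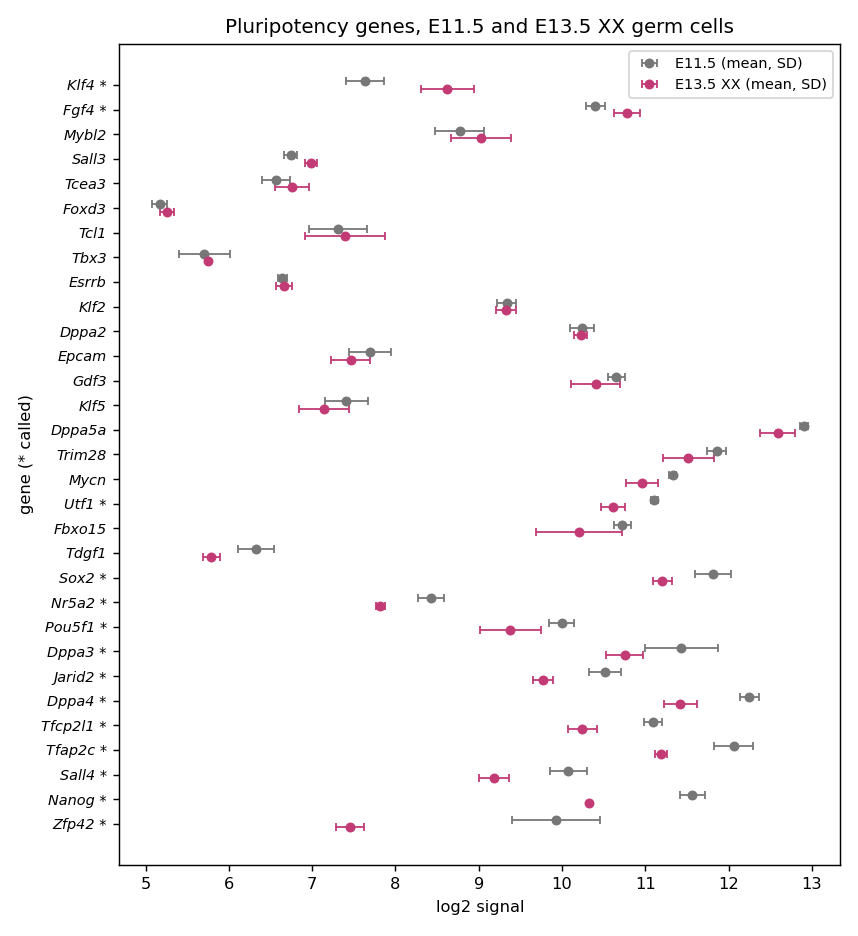
Mean log2 signal with the SD of the 31 measured pluripotency genes in E11.5 germ cells (grey, n = 4) and XX germ cells at E13.5 (pink, n = 3), ordered by the difference; an asterisk marks a called gene. Zfp42 at the bottom falls by 2.48 and Nanog by 1.23, while Klf4 at the top rises by 0.99 and Dppa2 differs by -0.02.

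Genes of germ cell specification and identity, 18 measured, held 5 fallers and 1 riser, Dazl (median -0.07). Kit, the receptor for the survival and migration signal of early germ cells, went from 8.78, 8.77, 8.68 and 7.91 to 6.96, 6.63 and 7.28 (2.99-fold, -1.58 ± 0.24, adjusted p = 1.23e-05). Prdm1 (Blimp1), which specifies the lineage, fell from 8.62, 8.91, 8.75 and 7.69 to 7.16, 6.97 and 7.29 (-1.35 ± 0.18, adjusted p = 3.02e-06), and Wdr77, a partner of the arginine methyltransferase that works with it, by 0.93. The other fallers were Tfap2c and Dppa3.

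Ddx4 (Vasa), an RNA helicase of the later germ line, did not pass the test since E11.5 (6.91, 6.89, 6.99 and 6.24 against 5.85, 5.83 and 7.32; -0.42 ± 0.23, adjusted p = 0.167). XX replicate 3 stood apart from the other XX arrays here. The gene was called lower without that array (-0.91), without E11.5 replicate 4 (-0.59) and with array weights (-0.83). XX cells exceeded XY cells (5.47, 5.27 and 5.17) by 1.03 ± 0.25 (adjusted p = 0.00702), a call lost without XX replicate 3 (0.54) and, at the same difference, with only the 3 germ cell groups fitted. Alkaline phosphatase (Alpl), the classical stain of early germ cells, read 8.27, 8.22 and 8.11 in XX cells and 7.95 to 8.29 at E11.5. The difference did not pass the limma test (0.13 ± 0.11, adjusted p = 0.381), but 0.22 was called with array weights. Alpl stood 0.93 ± 0.12 above XY cells (adjusted p = 4.33e-06).

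Imprinted genes are expressed from 1 parental copy in soma, and germ cells erase these marks around this time. Of 34 measured, 10 rose (29.4%) and 4 fell (11.8%) in XX cells (median 0.10), beside 16.2% and 15.3% of all autosomal genes. The leading riser was Phlda2, a growth-restraining gene expressed from the maternal copy, at 7.93, 8.28, 8.25 and 8.87 at E11.5 and 9.78, 10.18 and 9.96 in XX cells (3.12-fold, 1.64 ± 0.17, adjusted p = 8.41e-08). XY cells read 6.02, 6.29 and 6.53, and XX cells exceeded them by 3.69 ± 0.18 (adjusted p = 9.61e-14). Every XX array lay above, and every XY array below, all E11.5 arrays.

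Slc22a18, which neighbours Phlda2 on chromosome 7, read 7.18, 7.17, 7.46 and 7.77 at E11.5 and 9.27, 9.07 and 8.77 in XX cells (1.64 ± 0.12, adjusted p = 1.96e-10). XY cells read 6.86, 7.05 and 7.11 (difference 2.03 ± 0.13, adjusted p = 1.71e-11). Both genes were low in soma, at 5.80 and 6.94. Cdkn1c, the next gene of this maternally expressed group and an inhibitor of cyclin-dependent kinases, read 8.03, 7.87, 6.98 and 8.05 at E11.5 and 8.59, 9.16 and 9.36 in XX cells (1.30 ± 0.25, adjusted p = 2.60e-04). XY cells lay between (8.31, 8.35 and 8.53) without a called difference, and soma stood at 11.30.

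Nap1l4, on the other side of Phlda2, rose by 0.25, a call lost without any of 4 arrays (0.21 to 0.26). Igf2, a fetal growth factor expressed from the paternal copy, read 12.29, 11.84, 11.58 and 12.67 at E11.5 and 13.503, 13.68 and 13.95 in XX cells (1.61 ± 0.17, adjusted p = 1.05e-07), and stood at 15.80 in soma. Gnas, which encodes a G protein subunit from a complex imprinted locus, rose by 1.51 ± 0.16 and stood at 13.49 in soma. The probe sets used for Igf2 and Gnas are of the kinds that can match more than 1 transcript. A dimmer plain probe set differed by 0.12 for Igf2 and by 0.09 for Gnas.

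Igf2r, the maternally expressed receptor that clears IGF2, read 11.18, 10.76 and 11.25 in XX cells and 9.97, 9.98 and 9.77 in XY cells (difference 1.15 ± 0.20, adjusted p = 3.54e-04). Since E11.5 it rose by 0.52 in XX cells, a call lost without any of 5 arrays (0.42 to 0.53). The largest falls of the list were in Sfmbt2, a polycomb-type gene (-1.35 ± 0.22), the ubiquitin ligase gene Ube3a (-1.22 ± 0.27) and the amino acid transporter gene Slc38a4 (-1.03 ± 0.12). Sfmbt2 and Slc38a4 fell further in XY cells (-2.28 and -1.76; XX minus XY 0.93 ± 0.24 and 0.74 ± 0.12). For Sfmbt2 that difference lost its call without XX replicate 3 or XY replicate 1 (0.82 and 0.70).

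**Figure D4:**
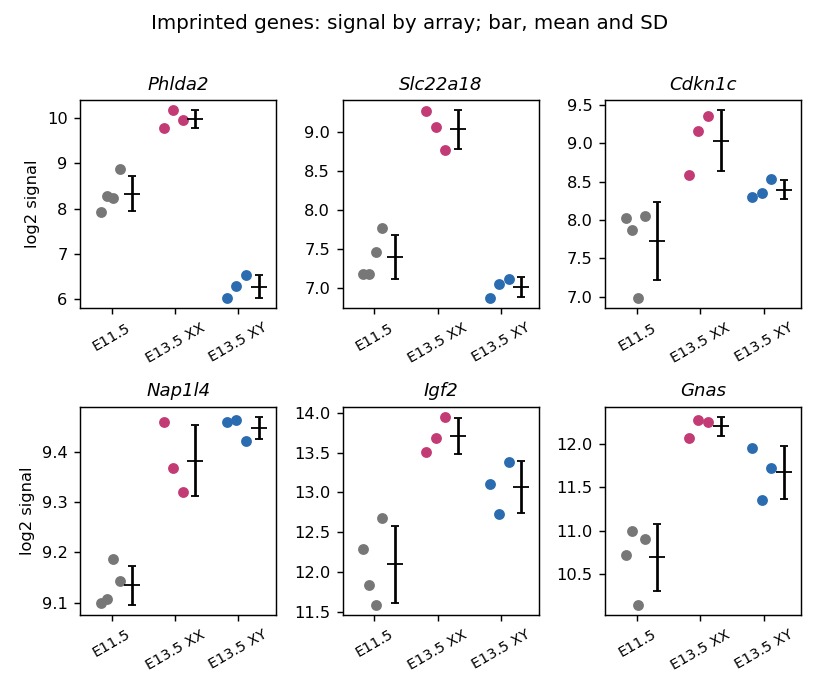
Log2 signal of 6 imprinted genes on each E11.5 (grey), XX (pink) and XY (blue) array, with the mean and SD of each group as a black bar (n = 4, 3 and 3) and an own scale in each panel. Phlda2 and Slc22a18 are highest on all 3 XX arrays and lowest on all 3 XY arrays, whereas Nap1l4 rises by 0.25 in XX and 0.31 in XY cells.

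Of 38 measured mitosis genes, 20 fell and 2 rose (52.6% and 5.26%; median -0.44, and -0.57 in XY cells). Without XX replicate 2 the count of fallers was 13. Mki67, a marker of cycling cells, read 10.51, 10.88, 10.67 and 8.84 at E11.5 and 7.83, 7.10 and 8.50 in XX cells (5.33-fold lower, -2.41 ± 0.35, adjusted p = 7.88e-06). E11.5 replicate 4 lay close to the XX arrays in this gene. The condensin gene Smc2 fell by 2.1, the checkpoint kinase gene Bub1 by 1.5 and the centrosome kinase gene Nek2 by 1.39.

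DNA replication genes, 40 measured, held 12 fallers and 5 risers (median -0.18). Cdc6, which loads the replicative helicase, fell 2.91-fold (-1.54 ± 0.17, adjusted p = 1.36e-07), the clamp loader gene Rfc4 by 1.22, the nucleotide reductase gene Rrm2 by 1.17 and the helicase gene Mcm4 by 1.02. For the G1 phase, the cyclin gene Ccnd1 rose from 9.41, 9.01, 9.25 and 9.80 to 9.91, 10.48 and 10.80 (1.03 ± 0.17, adjusted p = 3.83e-05) and exceeded XY cells by 0.84 ± 0.18 (adjusted p = 0.00289), a difference not called with only the 3 germ cell groups fitted. It stood at 11.03 in soma. A dimmer probe set of Ccnd1 changed by 0.25 since E11.5, with XX minus XY at -0.04. Cdk4, the kinase partner of this cyclin, fell by 0.86 ± 0.18.

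Among 22 measured cell cycle inhibitors and genes of the p53 axis, 4 rose (18.2%) and 2 fell (9.09%), with a median of 0.22. Of all autosomal genes, 16.2% rose and 15.3% fell. Besides Cdkn1c and Cdkn2b, the tumour suppressor gene Cdkn2a rose from 6.39, 6.67, 6.45 and 6.502 to 7.61, 7.34 and 7.39 (0.95 ± 0.18, adjusted p = 2.23e-04), with XY cells at a like change (0.90). The stress genes Gadd45b and Gadd45a moved in opposite directions, by 1.10 ± 0.27 and -1.24 ± 0.22. With only plain probe sets the difference of Gadd45b was 0.42 and not called.

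Apoptosis genes were mixed, with 6 of 29 measured members higher (20.7%) and 4 lower (13.8%), and a median of 0.07. Of all autosomal genes, 16.2% rose and 15.3% fell. Casp6, an executioner caspase gene, showed the largest rise, from 7.11, 7.17, 7.06 and 7.46 to 8.91, 9.08 and 8.91 (3.39-fold, 1.76 ± 0.21, adjusted p = 4.17e-07). XY cells read 7.98, 7.59 and 7.59, 1.24 ± 0.22 below XX cells (adjusted p = 4.08e-04), and soma stood at 9.47. Apaf1, the core of the apoptosome, fell by 1.34 ± 0.28 and the inhibitor of apoptosis gene Birc2 by 1.09 ± 0.21.

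The largest changes among chromatin genes were falls. Of 20 measured polycomb genes, 6 fell (30%) and 4 rose (20%), with a median of 0.08. Eed, a core subunit of the complex that methylates histone H3 at lysine 27, read 10.43, 10.80, 10.61 and 9.48 at E11.5 and 8.05, 7.89 and 8.59 in XX cells (4.44-fold lower, -2.15 ± 0.30, adjusted p = 4.83e-06). Its partners Mtf2 (-1.18 ± 0.25) and Suz12 (-0.83 ± 0.27) fell too, the call of Suz12 being lost without any of 4 arrays (-0.79 to -0.64) and with only the 3 germ cell groups fitted. Pcgf5 of the other polycomb complex fell by 1.08. The ubiquitin ligase gene Rnf2 passed no test (-0.42 ± 0.28, adjusted p = 0.269), but was called lower with the mean over its probe sets (-0.33) and with array weights (-0.65). Kat2b, a histone acetyltransferase gene, fell 4.17-fold (-2.06 ± 0.26).

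Of 22 measured genes of DNA methylation and demethylation, 4 fell (18.2%) and 2 rose (9.09%), with a median of -0.01. Of all autosomal genes, 15.3% fell and 16.2% rose. The 4 fallers were Ung, Gadd45a, Hells and Apex1. Ung, which removes uracil, showed the largest of these falls, from 12.69, 12.52, 12.53 and 11.96 to 11.23, 10.90 and 10.86 (-1.43 ± 0.19, adjusted p = 2.16e-06). Apex1, which cuts abasic sites, fell by 0.90, the smallest of them. Hells, a chromatin remodeller needed for DNA methylation, fell by 1.14 ± 0.42. It read 7.23, 7.22 and 9.08 in XX cells, and the difference was -1.75 without XX replicate 3. Leaving out any of 5 other arrays ended the call (-1.08 to -0.79), as did fitting only the 3 germ cell groups.

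Glycolysis genes, 19 measured, held 9 fallers and 3 risers (median -0.34, and -0.35 in XY cells). Pfkp, a phosphofructokinase gene, fell from 9.25, 9.02, 9.27 and 9.55 to 6.88, 7.53 and 6.85 (4.55-fold, -2.19 ± 0.27, adjusted p = 1.04e-06). Hk2, the hexokinase gene at the head of the pathway, fell 4.52-fold (-2.18 ± 0.30), Pkm, the pyruvate kinase gene at its end, 2.45-fold (-1.29 ± 0.15) and Slc16a1, a lactate carrier gene, 2.27-fold (-1.18 ± 0.29). None of these 4 differed by a called amount from XY cells.

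Oxidative phosphorylation genes moved the other way, with 19 of 47 measured members higher and 3 lower (40.4% and 6.38%; median 0.26, and 0.36 in XY cells). Ndufb8 of complex I rose from 7.76, 8.00, 7.69 and 8.84 to 9.88, 10.29 and 9.62 (3.63-fold, 1.86 ± 0.30, adjusted p = 2.65e-05), and Atp5e of the ATP synthase 2.00-fold (1.00 ± 0.21). Sdha of complex II fell by 1.23 ± 0.21. The count of risers was 11 with plain probe sets only and 14 to 22 with 1 array left out. Of 20 measured genes of cholesterol synthesis, 5 fell (25%) and 3 rose (15%). The falls were led by Hmgcs1, which starts the pathway (-1.92 ± 0.41), and Cyp51 (-1.40 ± 0.26). Of 29 measured ribosomal protein genes, 5 rose (17.2%, near the 16.2% of all autosomal genes) and none fell.

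Migration and adhesion genes, 38 measured, held 11 risers (28.9%) and 6 fallers (15.8%), with a median of 0.06. Dsp, which anchors desmosomes to the cytoskeleton, read 10.03, 10.38, 9.89 and 9.19 at E11.5 and 8.33, 8.45 and 9.01 in XX cells (-1.27 ± 0.31, adjusted p = 0.00208). XY cells went much lower, to 5.71, 6.70 and 6.61, and the difference was 2.26 ± 0.33 (adjusted p = 3.60e-05). Cd9, a tetraspanin gene of germ cells and oocytes, rose by 0.74 ± 0.22.

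Several large changes lay outside these lists. Calcoco2, an autophagy receptor gene, read 5.26, 5.34, 5.32 and 5.58 at E11.5, 6.84, 7.27 and 6.56 in XX cells and 4.43, 3.95 and 4.34 in XY cells. It rose by 1.52 ± 0.16 (adjusted p = 9.63e-08) and exceeded XY cells by 2.65 ± 0.17 (adjusted p = 1.71e-11). Sh3bgr read 7.98, 8.13 and 7.80 in XX cells against 6.00 to 6.76 at E11.5 and 6.33 to 6.36 in XY cells (1.60 ± 0.14 since E11.5, 1.63 ± 0.15 over XY). Their means in soma, 2.94 for Calcoco2 and 5.24 for Sh3bgr, lay below every XX array.

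Gm1673 (2.16), the respiratory chain gene Cox7a1 (1.63), the receptor kinase gene Tyro3 (1.55) and the tetraspanin gene Tspan33 (1.55) rose in XX cells, and XY cells rose in them by 1.43, 0.87, 1.49 and 0.80. The immediate early gene Fos rose by 1.64 ± 0.35 to a level still below that of soma (14.30), and the transcription factor gene Cebpb by 1.59 ± 0.20. Irx3, a gene of the soma list, rose by 0.89 ± 0.18 in XX cells, stood at 8.26 in soma and changed by -0.18 in XY cells (XX minus XY 1.07 ± 0.20, adjusted p = 5.46e-04).

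The 15 largest falls included Hpf1, which directs ADP-ribosylation at DNA breaks (-2.40), Dusp6, an ERK phosphatase and readout of FGF signalling (-2.37 ± 0.32), and Frat2, an activator of Wnt signalling (-2.31). Nfkbiz, a nuclear regulator of NF-kappaB (-2.24), Tdp2, which repairs topoisomerase-linked DNA ends (-2.12), Zfp871, Paxbp1 and Stx3 were also among them. None of these 8 differed between XX and XY cells by a called amount. The translation factor gene Eif1a did: it read 9.48, 9.59 and 9.87 in XX cells, 10.98, 10.96 and 10.65 in XY cells and 11.45 to 12.21 at E11.5 (-2.14 ± 0.22 since E11.5, -1.21 ± 0.23 against XY). The amino acid transporter gene Slc38a2 fell by 2.07 ± 0.23 and lay 1.16 below XY cells on average (XX minus XY -1.16 ± 0.24), and Faap20, of the crosslink repair complex, fell by 0.68 in XX and rose by 1.05 in XY cells (-1.73 ± 0.19). Faap20 is given by the brighter of its 2 probe sets, and the mean over both changed by -0.25 since E11.5 and was not called.

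**Figure D5:**
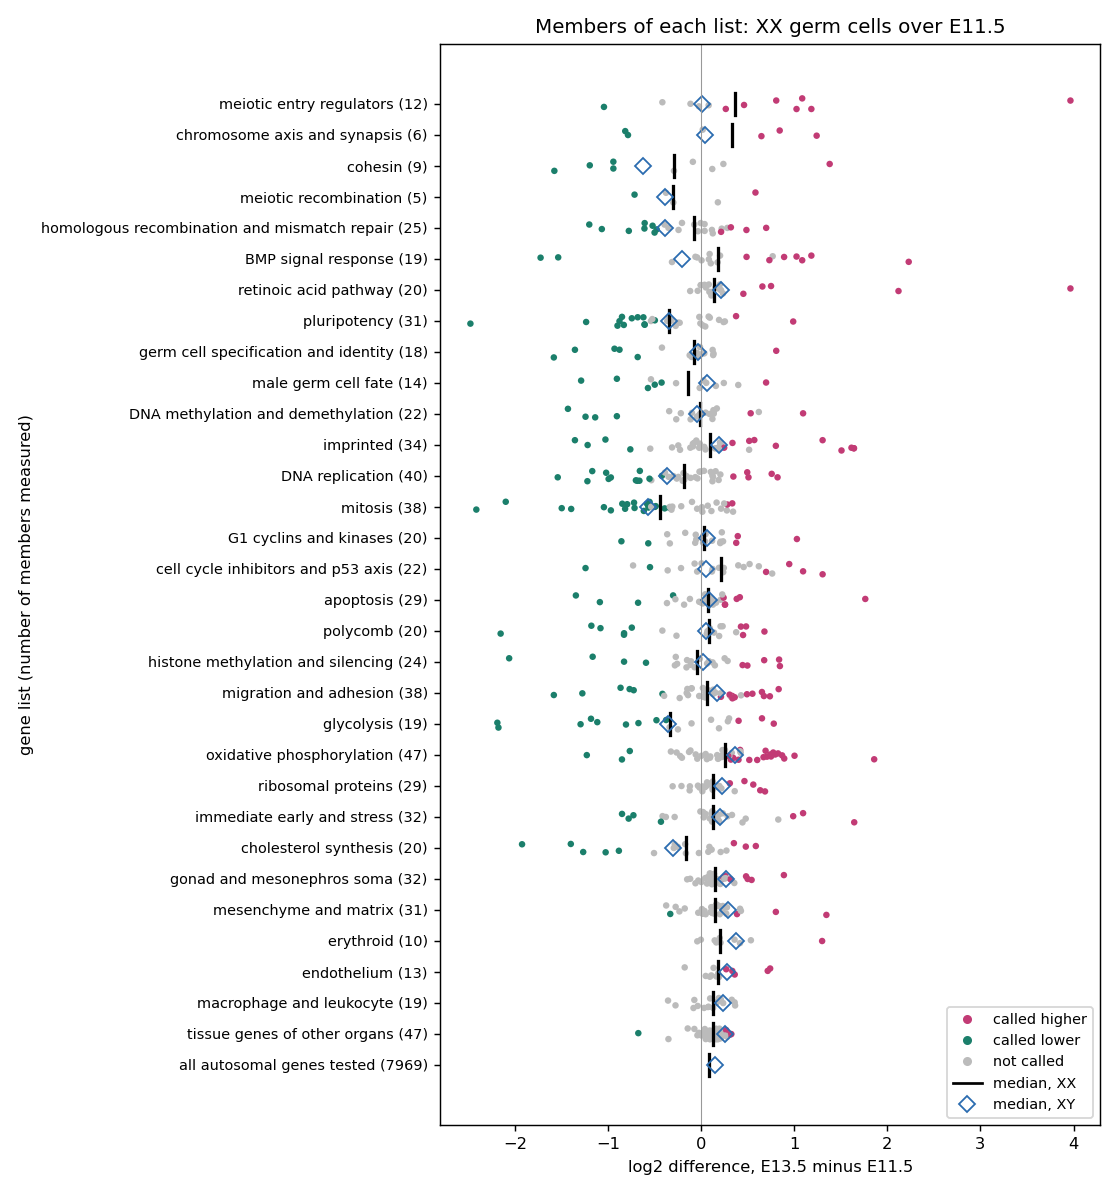
Log2 difference of each measured member of 31 gene lists, XX germ cells at E13.5 minus E11.5 (points; pink called higher, green called lower, grey not called), with the median in XX cells (black bar) and in XY cells (blue diamond); the number measured stands in brackets. The medians of mitosis (-0.44), pluripotency (-0.34) and glycolysis (-0.34) lie lowest, those of meiotic entry (0.36) and axis genes (0.33) highest, against 0.08 over all autosomal genes.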

How the data were processed

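The deposited table holds log2 signal values, 1 per probe set and array, made by the authors with RMA, per the submitters' processing notes, which state no version. It has 12488 probe sets. Where a gene had several probe sets (2073 genes), the brightest stood for it. Symbols (10833 probe sets with exactly 1) and chromosomes follow the gene table of GRCm38.p6. Limma 3.58.1 in R 4.3.3 (lmFit, eBayes) fitted all 10 groups, so that the groups shared 1 estimate of spread, with 22 degrees of freedom left; the residual SD had a median of 0.161. P-values are two-sided and adjusted over 8251 genes. On simulated data for XX over E11.5 with 200 changed genes, the fit called 193 of them and 7 others. The simulated noise was independent between genes, the changes were at least 2-fold and no shift was shared across an array. These counts therefore do not give the error rate on the real arrays. Errors of differences are SE and of means SD. Array number, not read depth, limits precision.

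The comparisons, members and 31 gene lists were chosen with earlier results of these data known. Genes considered for naming were the 15 largest non-overlapping rises and falls and the 5 largest called differences from XY each way. Also considered were all measured members of the 9 meiotic, signalling, pluripotency and germ cell fate lists. Up to 4 leading members came from each other list. Not all of these genes appear in the text. Gbx2, Brca2, Exo1, Apex1, Cd9, Nap1l4, Igf2r, Sfmbt2, Ube3a and Slc38a4 were chosen after their values were seen.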

Additional observations from a re-analysis of the deposited data

Results flagged for a closer look

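XX and XY germ cells differed at E13.5 in 48 of the 135 genes examined, by the direct limma comparison of the sexes (adjusted p under 0.05). Over all autosomal genes the share called was 8.16%. The shares are not alike, since some of the 135 were chosen for their difference from XY cells or after their values were seen. Values are XX minus XY cells in log2 units, which equal the difference of the changes since the shared mixed-sex E11.5 arrays.

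Among signalling and meiosis the difference was 3.43 for Stra8, 3.30 for Id1, 2.23 for Id2, 2.01 for Msx2, 1.92 for Crabp2, 1.56 for Id3, 1.40 for Gata2, 1.32 for Gbx2, 1.23 for Msx1, 1.07 for Irx3, 0.74 for Crabp1, 0.71 for Acvr2a, 0.71 for Syce2, 0.70 for Stag3, 0.62 for Stag1, 0.53 for Dmc1, 0.49 for Id4, -0.63 for Trp53bp1, -1.95 for Lefty1 and -1.66 for Nodal.

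Among pluripotency, germ cell and imprinted genes the difference was 3.69 for Phlda2, 2.03 for Slc22a18, 1.15 for Igf2r, 1.03 for Ddx4, 0.95 for Dppa2, 0.93 for Sfmbt2, 0.93 for Alpl, 0.82 for Tfap2c, 0.74 for Slc38a4, 0.64 for Sall4, 0.64 for Igf2, 0.61 for Prdm1 and -0.65 for Dppa3.

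Among other genes the difference was 2.65 for Calcoco2, 2.26 for Dsp, 1.63 for Sh3bgr, 1.24 for Casp6, 0.98 for Gadd45b, 0.97 for Gadd45a, 0.88 for Cebpb, 0.84 for Ccnd1, 0.76 for Cox7a1, 0.75 for Tspan33, 0.73 for Gm1673, 0.72 for Sdha, -1.16 for Slc38a2, -1.21 for Eif1a and -1.73 for Faap20.

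Of these 48 calls, 15 were lost without 1 of the 6 arrays, those of Acvr2a, Cebpb, Cox7a1, Ddx4, Dmc1, Dppa3, Gadd45b, Gm1673, Id4, Igf2, Prdm1, Sdha, Sfmbt2, Stag1 and Tspan33.

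An E11.5 array stood far from the other 3 by Dixon's test in 13 of 135 genes. The genes share the same E11.5 arrays and were partly picked for their change since E11.5. The chance rate of about 1 in 20 for a single gene therefore does not apply to this count. E11.5 replicate 4 was that array in 10 of them, with a log2 signal of 9.86 for Bub1, 12.24 for Cdk4, 6.24 for Ddx4, 8.05 for Hk2, 6.87 for Id4, 8.36 for Irx3, 7.91 for Kit, 9.53 for Smc3, 11.63 for Tdp2 and 11.71 for Tfap2c. The others were replicate 2 at 3.71 for Lhx8, replicate 1 at 8.30 for Syce2, replicate 1 at 11.26 for Tfcp2l1. The part of RNA quality or stage of the embryos in the position of replicate 4 was not tested.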

How the results depend on the processing

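Of 129 genes named as changed since E11.5, 119 to 129 kept their direction and call under each alternative run on all of them, and 48 of 48 named differences between the sexes kept theirs with a replicate block, but 37 of 48 with only the 3 germ cell groups fitted. The 11 lost were Ccnd1, Cebpb, Ddx4, Dmc1, Dppa3, Gm1673, Igf2, Prdm1, Sdha, Stag1 and Tspan33 (adjusted p 0.0588 to 0.178 by limma). With only the 2 compared groups fitted, the changes since E11.5 of Dmc1, Dppa3, Fgfr3, Figla, Hba-a1, Hells, Rxrb, Slc16a1, Suz12 and Sycp1 lost their calls (0.0581 to 0.226). Array weights raised the genes called since E11.5 from 2509 to 4007, of which 2389 higher, and gave 5 glycolysis, 4 mitosis, 29 oxidative phosphorylation, 4 pluripotency and 10 retinoic acid risers and 5 oxidative phosphorylation and 2 meiotic entry fallers. Quantile normalization gave 9 mitosis risers, 397 genes lower in XX than in XY cells and 36 lower at least 2-fold. Mitosis risers were 4 with only the 2 compared groups or the 3 germ cell groups fitted and 1 with plain probe sets, which gave 11 oxidative phosphorylation risers. Pluripotency risers were 1 with median centring, an intensity trend or the replicate block. Meiotic entry held 2 risers with the dimmest genes left out, because that setting removes dim members. All 112 named changed genes still tested there kept their direction and call. Meiotic entry held 2 fallers with the mean over probe sets. The replicate block gave 2601 genes called since E11.5 and 653 between the sexes, and ended the calls of Fgf4, Figla, Igf2r and Nap1l4 (adjusted p 0.0521 to 0.057) and no other named call. Like-numbered E11.5 and XX arrays correlated between -0.222 and 0.206 in their deviations from the group means, so the numbers were not taken as pairs.

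Leaving out 1 array gave 1784 to 2879 genes called since E11.5, 827 to 1543 of them higher (827 without XX replicate 1, 836 without XX replicate 2, 856 without E11.5 replicate 2). Between the sexes it gave 344 to 680 called, 241 to 490 higher, 100 to 190 lower, and 51 to 100 higher at least 2-fold (100 without XX replicate 2). Glycolysis risers were 3 to 5 (5 without E11.5 replicate 4), mitosis risers 1 to 2 and fallers 13 to 21, and pluripotency risers 1 to 4.

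The uncalled differences of Dppa2 (-0.02) and Sycp3 (0.02) changed sign. Dppa2 was 0.19 after quantile normalization and 0.0022 with array weights, and -0.054 to 0.050 with 1 array left out. Sycp3 was -0.035 with median centring, -0.012 after quantile normalization and -0.0041 with the replicate block, and -0.024 to 0.065 with 1 array left out. Fgfr3 was 0.019 with the mean over its probe sets. The cause was not tested in any of these cases. Signal over background limits dim probe sets such as that of Sycp3, and 4 and 3 arrays limit all comparisons.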
